A study of Mus musculus with 2 samples.

Results

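B lineage cells were captured almost entirely in the Mettl14_cKO library, from mice bred to delete Mettl14, a subunit of the RNA m6A methyltransferase, in the gut epithelium. A barcode (the sequence tag that marks the droplet of a cell) was counted as a B lineage member if it passed the quality limits of at least 500 genes and under 25% mitochondrially encoded UMIs, where a UMI is a counted RNA molecule. It also had at most 1 UMI of the epithelial gene Epcam, no UMI of Cd3e (T cells) or C1qb (macrophages), and at least 3 UMIs summed over Cd79a, Cd79b and Ms4a1. Of 7125 kept barcodes of the Mettl14_cKO library, 121 were members, which is 1.70% (exact 95% interval 1.41 to 2.03). Of 9154 kept barcodes of the control library, 2 were members, which is 0.0218% (0.00265 to 0.0789). The ratio of these shares, Mettl14_cKO over control, was 77.7 (exact 95% interval 21.1 to 649). Members were thus chosen by the counts of Cd79a, Cd79b, Ms4a1, Epcam, Cd3e and C1qb, and those genes are given as a description only.

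Both were 10x Genomics libraries of isolated crypts of the colon, from C57BL/6 mice at 4 weeks of age. The Mettl14_cKO mice were M14(f/f);Villin-Cre, so that a recombinase driven by the Villin promoter, which is active in gut epithelial cells and not in lymphocytes, acted on floxed Mettl14 alleles. The control mice were M14(f/f), with the same floxed alleles and no Cre. Each genotype was 1 library that combined cells from 3 mice, so no difference between genotypes has a replicate check, no test was made, and every interval covers counting error only.

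The Mettl14_cKO library held 89729527 UMIs in 9225 barcodes and the control library 111239295 UMIs in 10181 barcodes. The kept barcodes of the libraries shared 15 barcode sequences, and no barcode sequence was a member in both. Xist, the non-coding RNA of the inactive X chromosome, was detected in 78 of 121 Mettl14_cKO members and in 0 of 2 control members, and in 106 of 154 and 0 of 124 T or NK barcodes. Genotype and the sex of the pooled mice therefore cannot be told apart. Mettl14 itself had 392 UMIs (5.02 UMIs scaled to a common total of 1000000, CPM) in epithelial barcodes of the Mettl14_cKO library and 515 UMIs (4.76 CPM) in those of the control. The labels do not say which exons are floxed, so counts over the whole gene do not check the deletion. Among the members, 4 of 121 Mettl14_cKO cells and 0 of 2 control cells had a Mettl14 UMI.

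B lymphocytes carry an antigen receptor made of a membrane immunoglobulin and the signalling pair CD79A and CD79B, and present antigen on MHC class II. A naive B cell co-expresses IgM and IgD. In germinal centres, such as those of colonic lymphoid patches, activated B cells divide, mutate and switch their immunoglobulin genes, and plasma cells that leave them secrete IgA, which the J chain links into polymers for transport across the gut epithelium.

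The members were mostly shallow cells. Their UMIs ranged from 898 to 22120 with a median of 1759, and their median was 793 genes. The control members had 4792 and 2291 UMIs. In the Mettl14_cKO members, Cd79a was detected in 120 of 121 cells (median 4 UMIs, highest 15), Cd79b in 88 and Ms4a1, which encodes CD20, in 80. The summed marker count had a median of 6 and reached 34. Just inside the limit, 15 members had a sum of exactly 3. Just outside it, 16 otherwise matching barcodes had a sum of 2 and 27 had a sum of 1, against 1 and 4 in the control library. None of the 121 members had a Scrublet doublet score of 0.25 or more.

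The control members were of different kinds. The deeper one had plasma cell features, with 66 Jchain, 100 Igha and 958 Igkc UMIs and the dominant light chain variable gene Igkv17-127. The other was an IgM cell with 8 Cd79a, 5 Cd79b, 3 Ms4a1, 6 Ighm, 11 Igkc and 33 Cd74 UMIs and no Ighd.

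Set against the other immune cells, the ratio differed in size by cell type. T or NK barcodes (Cd3e detected, none of the B markers) made up 154 kept barcodes (2.16%) in the Mettl14_cKO library and 124 (1.35%) in the control, a ratio of 1.60 (exact 95% interval 1.25 to 2.04). There were 78.6 members per 100 T or NK barcodes in the Mettl14_cKO library and 1.61 in the control, a ratio of 48.7 (13.2 to 407). Macrophage barcodes (at least 3 C1qb UMIs) numbered 76 in the Mettl14_cKO library and 3 in the control, a ratio of shares of 32.5 (10.7 to 161). Relative to macrophage barcodes the ratio of members was 2.39 (0.647 to 19.9), an interval that includes 1.

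Antigen presentation set the members apart from the T or NK barcodes of the same library. Cd74, the invariant chain, was found in 121 of 121 members at 10992 CPM over their summed UMIs, and in 21 of 154 T or NK barcodes at 97.2 CPM. Per member it ranged from 11 to 126 UMIs with a median of 29. H2-Aa, the class II alpha chain, had 1232 UMIs in 119 members and 3 UMIs in 3 T or NK barcodes, a ratio of 396 (135 to 1923). H2-Eb1, a class II beta chain, had 898 UMIs in 119 members and 1 UMI, a ratio of 866 (155 to 34246). H2-Ab1 had 559 UMIs in 115 members and 12 UMIs in 12 T or NK barcodes. The peptide exchange subunits H2-DMa and H2-DMb2 had 128 and 77 UMIs in members and 8 and 0 in T or NK barcodes. With the 0 set to a floor of 3 counts, H2-DMb2 was at least 24.8-fold higher. Cd74 was not particular to B cells, since macrophage barcodes of the same library stood at 20104 CPM. The class II transactivator Ciita was thinly sampled, with 8 UMIs in 7 members and 1 UMI in T or NK barcodes.

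The promoters of the class II genes that led this contrast hold letters of the X and Y boxes, known from class II promoters. A match of letters is a description and not a shown binding site. The 150 bases before the annotated start are shown for H2-Aa and H2-Eb1, with the X box start (CTNGCAACT) and the Y box (CTGATTGG) in capitals, searched on both strands of RefSeq promoters of build GRCm38.p6.
H2-Aa, chr17:34287824-34287973, minus strand: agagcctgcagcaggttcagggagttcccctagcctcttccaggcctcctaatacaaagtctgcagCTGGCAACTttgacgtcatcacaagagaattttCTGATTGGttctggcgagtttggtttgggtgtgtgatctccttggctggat
H2-Eb1, chr17:34305717-34305866, plus strand: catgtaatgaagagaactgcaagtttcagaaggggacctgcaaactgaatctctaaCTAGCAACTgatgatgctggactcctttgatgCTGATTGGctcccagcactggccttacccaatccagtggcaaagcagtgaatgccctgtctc
The X box start began 84 bases before the start of H2-Aa and 94 before that of H2-Eb1, and the Y box began 51 and 62 bases before. In windows of 300 bases around the start, the X box start was in 0.898% of all 32851 promoters and the Y box in 4.10%. Of 7 class II list genes with a promoter in the table, H2-Aa and H2-Eb1 held both and H2-Oa held the Y box alone.

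Over all 2931 genes with enough counts, 6.72% were at least 2-fold higher in members than in T or NK barcodes and 17.1% were at least 2-fold lower, with a median log2 ratio of -0.29. Here and below, log2 ratios and 2-fold calls use summed CPM plus 10. Other ratios of gene levels and their intervals use summed CPM with nothing added. With immunoglobulin, ribosomal protein and mitochondrially encoded genes left out of the totals, that median was 0.03. Because the rule used B and T cell genes, the lists in this contrast are descriptions and nothing is read from their counts. All 9 tested genes of the MHC class II list were higher (median log2 ratio 4.32), as were all 9 of the B cell receptor list (3.11). The tested T or NK markers were lower, 11 of 11 (median -6.31), and Cd3g, Cd3d and Nkg7 had no UMI in any member.

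**Figure D1:**
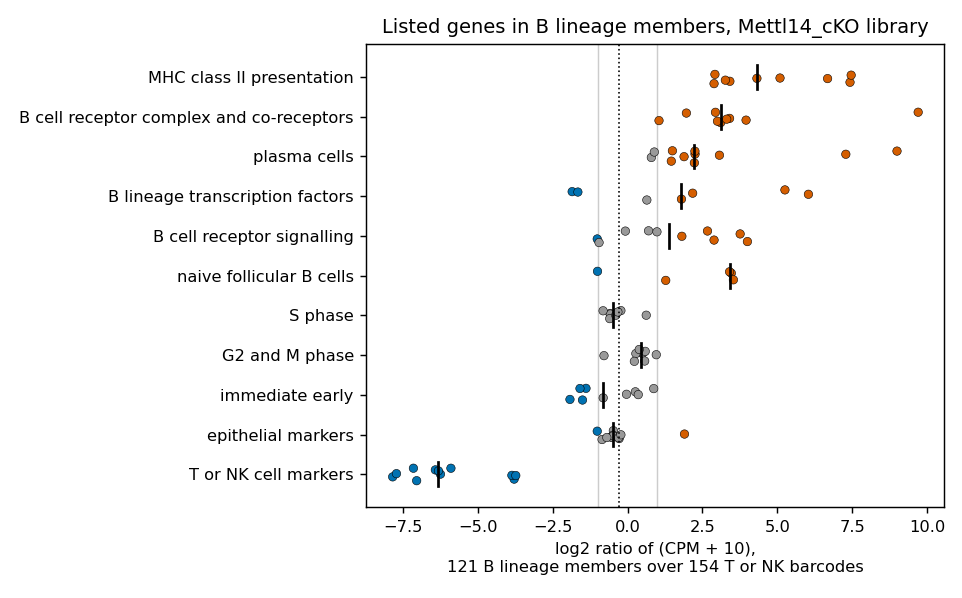
Points are log2 ratios of (CPM + 10), 121 B lineage members over 154 T or NK barcodes of the Mettl14_cKO library, for the tested genes of 11 lists. Bars mark list medians, the dotted line the median of all genes (-0.29), and orange and blue points lie at or past 2-fold. MHC class II genes have a median of 4.32 and T or NK markers one of -6.31.

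The receptor and its signalling chain were present in layers. Fcrla, an Fc receptor-like protein of B cells, had 59 UMIs in 40 members and none in T or NK barcodes, at least 19.0-fold higher. Of 10 tested B cell receptor signalling genes, 5 were at least 2-fold higher. Bank1, an adaptor of B cells, had 61 UMIs against 0 and Btk, a kinase mutated in human agammaglobulinaemia, had 26 against 0. Blnk, the linker between SYK and phospholipase C, had 65 UMIs against 1. Blk was lower (log2 ratio -1.01), a call that was lost with totals that leave out immunoglobulin, ribosomal protein and mitochondrially encoded genes.

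Among transcription factors, Ebf1, which sets B cell identity, had 263 UMIs in 98 members and none in 154 T or NK barcodes. It was at least 84.6-fold higher. Mef2c had 151 UMIs against 0, at least 48.5-fold higher, and Spi1, which encodes PU.1, had 33 against 4. Pax5 was thinly sampled, with 16 UMIs in 15 members, and did not reach the level needed for a call. Foxo1 and Ikzf3 were lower, at log2 ratios of -1.85 and -1.66. Ly6d, a surface marker of committed B lineage progenitors, had 604 UMIs in 99 members and none in T or NK barcodes. Vpreb3, an endoplasmic reticulum protein bound to immunoglobulin, had 101 UMIs in 50 members, again with none.

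The promoters of Blnk and Vpreb3 are shown because both genes had at most 1 UMI in T or NK barcodes and both hold the octamer (ATGCAAAT, capitals, here on the reverse strand as its complement), the DNA word bound by OCT proteins. These genes were picked for the match, and the octamer is in 1.74% of all promoters.
Blnk, chr19:40994222-40994371, minus strand: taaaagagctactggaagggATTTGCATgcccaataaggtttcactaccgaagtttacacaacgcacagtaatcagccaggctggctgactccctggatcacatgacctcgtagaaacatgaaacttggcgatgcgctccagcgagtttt
Vpreb3, chr10:75948150-75948299, plus strand: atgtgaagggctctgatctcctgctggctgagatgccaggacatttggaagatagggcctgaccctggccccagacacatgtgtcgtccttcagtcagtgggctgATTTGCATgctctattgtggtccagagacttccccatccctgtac
The octamer began 130 bases before the start of Blnk and 45 before that of Vpreb3. Neither the 8 B cell receptor genes nor the 11 B lineage factors with a promoter in the table held it.

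Rules on counts sorted the members by state. Germinal-centre-featured meant at least 2 of 8 germinal-centre genes, plasma-featured at least 10 Jchain UMIs with at least 2 of 8 other plasma genes, and naive-featured Ighd without either. Of the members, 25 members (20.7%) were naive-featured, 4 (3.31%) germinal-centre-featured and 9 (7.44%) plasma-featured, with 1 cell meeting both of the last rules, and 84 (69.4%) met none. These are ranges of counts and not cell types, and depth moved with them. The median was 13526 UMIs in plasma-featured, 7392.5 in germinal-centre-featured, 1578 in naive-featured and 1676.5 in the remaining members. Thinned to 1000 UMIs, 110 members gave 16 naive-featured cells and 1 germinal-centre-featured cell.

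Naive features were IgD-based. The 25 naive-featured members had between 1 and 3 Ighd UMIs, and 13 of them also had Ighm. None had a dominant switched heavy chain, although Igha had 1 UMI in 1 of them and Ighg2b 2 UMIs in 2. Ighd had no UMI in the 154 T or NK barcodes. Over all members, Ccr7, the receptor that guides B cells to lymphoid tissue, had 121 UMIs in 63 cells against 7 UMIs in 7 T or NK barcodes. Tnfrsf13c, the BAFF receptor, had 55 UMIs in 34 members against 1 UMI. These values cover members of all states. Ccr7 was at 656 CPM in naive-featured and 49.2 CPM in germinal-centre-featured members, and Tnfrsf13c at 123 and 246 CPM. Fcer2a, which encodes CD23, was found in 12 members, and Cr2 (CD21) in 3. Of 5 tested naive follicular genes, 4 were at least 2-fold higher in all Mettl14_cKO members than in T or NK barcodes (Klf2, Ccr7, Ighd and Tnfrsf13c). Over all tested genes the share was 6.72%. The gate chose B over T cells and Ighd set the naive rule. This count is therefore a description, and nothing about naive cells is read from it. Gpr183 was lower at a ratio of 0.476 (0.321 to 0.698), and that call was lost without 2 members that carried neutrophil RNA.

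Germinal-centre transcripts were rare. Mef2b had 19 UMIs in 13 members and Rgs13 had 5 in 2. Bcl6 and Mybl1 had 1 UMI each, and S1pr2 and Gcsam had none, with an exact upper limit of 3.00% on the share of cells with a UMI. Of the 4 germinal-centre-featured members, the deepest had 22120 UMIs with 44 Jchain and 36 Igha UMIs, and so also met the plasma rule. The cell of 6274 UMIs held 34 marker UMIs and 4 of the 8 germinal-centre genes. The cell of 3748 UMIs was Ighm/Ighd-dominant and also had 4.

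Cell cycle genes were high in these 4 cells. All 4 had at least 2 S phase and at least 2 G2 or M phase genes, against 2 and 1 of 25 naive-featured members. Over 1315 tested genes, 27.9% were at least 2-fold higher and 15.2% at least 2-fold lower in germinal-centre-featured than in naive-featured members (median log2 ratio 0.34), with the state genes left out. Of 18 listed G2 and M phase genes 6 were tested, and all 6 were higher (median 4.74). Of 17 listed S phase genes 3 were tested, and all 3 were higher (3.54). A gene could pass the minimum count through the germinal-centre-featured cells alone, as Ube2c did. These list counts are therefore descriptions. Ube2c, which drives exit from mitosis, had 33 UMIs in 4 of 4 cells and none in the 25 naive-featured ones. Birc5 (survivin) had 30 UMIs against 1, and Ezh2, the H3K27 methyltransferase of dividing B cells, 16 UMIs in 4 cells against 0. Rgs1, a regulator of chemokine receptor signalling, had 53 UMIs in 3 cells against 1 UMI. Without the cell that also met the plasma rule, all 4 tested G2 and M phase genes and both tested S phase genes were still higher, with the same limit. Rgs1 then had 17 UMIs against 1. Top2a lost its call without the cell that held most of its UMIs (log2 ratio -0.31). The germinal-centre-featured cells were deeper, and the shares of cells above were not corrected for depth.

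Most calls of lower MHC class II genes in this contrast rested on 1 cell. Of 8 tested genes, 6 were at least 2-fold lower in germinal-centre-featured cells, but without the cell that also met the plasma rule, which held 22120 of the 40653 summed UMIs, 1 of 8 was (H2-DMb2). Cd74 was at 6371 CPM in germinal-centre-featured and 14467 CPM in naive-featured members, a ratio of 0.440 (0.380 to 0.508). Without that cell Cd74 was at 9389 CPM, a ratio of 0.649 (0.547 to 0.767), and H2-Aa had a ratio of 0.611 (0.439 to 0.838). Ly6d had 2 UMIs in 2 cells against 111 UMIs in 21 cells, and Ccr7 had 2 UMIs against 32. The 3 tested light zone genes were lower, with Nfkbia at 98.4 CPM in germinal-centre-featured and 1107 CPM in naive-featured members and Cd83 at 8 UMIs against 23. Without the same cell only Nfkbia was still lower among these 3. All 6 tested epithelial markers were also lower in germinal-centre-featured cells (median log2 ratio -1.79), and their part in these values was not tested. Several of the lowest genes by the naming rule, including Il1b, Lyz2, Ccl3 and Fcer1g, came from 1 naive-featured cell that carried neutrophil and macrophage transcripts, with 138 S100a8, 188 Ccl4 and 23 Lyz2 UMIs. Without it these 4 genes had no UMI left on either side and Cxcl2 turned to a log2 ratio of 1.79.

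**Figure D2:**
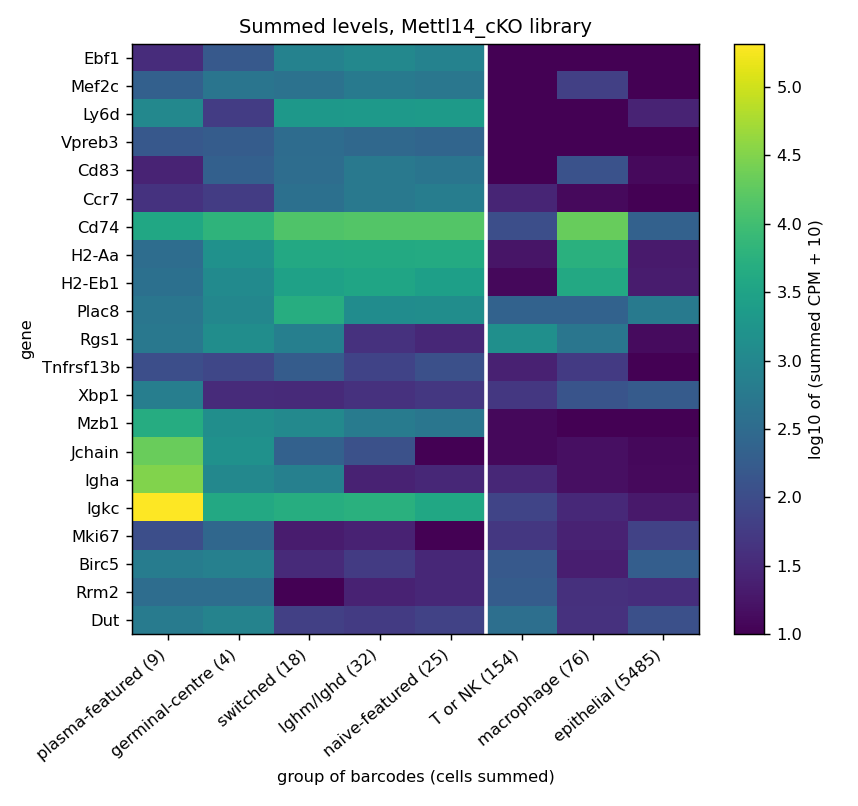
Colour gives log10 of (CPM + 10) over summed cells of the Mettl14_cKO library, for 21 genes (rows) in 5 member groups and, right of the white line, 3 other cell groups, with cell numbers in parentheses. The groups overlap in part, and rows compare cells for 1 gene. Ebf1 is high in switched, Ighm/Ighd-dominant and naive-featured members, Igkc in plasma-featured ones, and Cd74 is also high in macrophage barcodes.

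Plasma features came with large immunoglobulin counts. The 9 plasma-featured members had between 35 and 737 Jchain UMIs, with a median of 202, and between 111 and 7716 Igkc UMIs, with a median of 1654. They were Igha-dominant in 6 cells, and Ighg2b, Ighg2c and Ighg1 each led in 1. Xbp1, which drives the secretory programme, was detected in 8 of 9 and Mzb1, a chaperone of IgM and J chain assembly, in 9 of 9. The rule for this class used Jchain, Xbp1, Mzb1 and Sdc1, so their counts here are a description. Sdc1, the surface marker CD138, was found in 5 of all 121 members. Of the gate genes, Cd79a had a median of 4 UMIs both in this class and in all 121 members. Per 10000 UMIs its median was 4.36 in plasma-featured members and 20.3 in all 121. Ms4a1 was detected in 2 of 9 plasma-featured cells.

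Against naive-featured members, 19.4% of 1600 tested genes were at least 2-fold higher and 24.6% at least 2-fold lower in the 8 plasma-featured members without germinal-centre features (median log2 ratio -0.16). This contrast and the next were added after the data were seen. Of 6 tested plasma genes that the rule had not used, 5 were higher, among them Edem1, a factor of protein quality control, with 29 UMIs in 8 cells against 1 UMI. Genes of the named 12 with the highest ratios included Ube2c and Pclaf of the cell cycle and 3 genes of the secretory pathway. Pdia4 had 66 and Sdf2l1 57 UMIs in 8 of 8 cells, and Lman1, a cargo receptor for secretion, had 43 UMIs in 7, with none of the 3 found in naive-featured members. Of 18 listed G2 and M phase genes 8 were tested, and all 8 were higher. Of 17 listed S phase genes 6 were tested, and 5 were higher. Top2a and Slbp lost their calls without the cell highest in each (log2 ratios 0.98 and 0.60). A gene could pass the minimum count through the plasma-featured cells alone, as Ube2c did (74 UMIs against 0). The list counts of this contrast are therefore descriptions. At the level of cells, 5 of the 9 plasma-featured members had at least 2 G2 or M phase genes, and these 5 had between 9174 and 22120 UMIs. The other plasma-featured cells had 0 or 1.

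MHC class II was lower in plasma-featured members for all 7 tested genes, and remained so for 7 of 7 when immunoglobulin, ribosomal protein and mitochondrially encoded genes were left out of the totals. H2-Aa had 27 UMIs (276 CPM) in plasma-featured and 211 UMIs (4324 CPM) in naive-featured members. Ebf1 had 3 UMIs in 2 of 8 cells against 39 UMIs in 24 of 25. Cd72, an inhibitory co-receptor, had 0 UMIs against 18, at least 12.1-fold lower by the floor of 3 counts. Rel, an NF-kB subunit, had 0 UMIs against 40 in 19 of 25 cells. It was at least 26.8-fold lower by that floor (exact limit 20.8). Klf2, a factor of quiescence and trafficking, was at 1031 CPM in plasma-featured and 348 CPM in naive-featured members, but 84 of its 101 UMIs lay in 1 plasma-featured cell. Without that cell it was at 221 CPM in plasma-featured members, a ratio of 0.633 (0.304 to 1.32). Markers of other cell types moved in this contrast too, with 6 of 6 tested epithelial markers (median log2 ratio -3.11), 2 of 2 macrophage (-4.40) and 2 of 2 neutrophil markers (-7.38) lower in plasma-featured members. Their part in the MHC class II values (median -2.66) was not tested.

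The Epcam limit kept out another 8 plasma-featured barcodes of the Mettl14_cKO library. They had between 2 and 7 Epcam UMIs. Per 10000 UMIs that was a median of 2.14, with a range of 1.14 to 4.81, against a median of 17.6 in epithelial barcodes. They were deep, with a median of 11866.5 UMIs, 2 of them also had a marker sum under 3, and none had a doublet score of 0.25 or more. Igha led in 6, Ighg3 in 1 and Ighg2b in 1, and the last also had 6 germinal-centre genes, 17 S phase and 13 G2 or M phase genes. Counted with the members, there were 17 plasma-featured barcodes, and 12 of them were Igha-dominant.

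**Figure D3:**
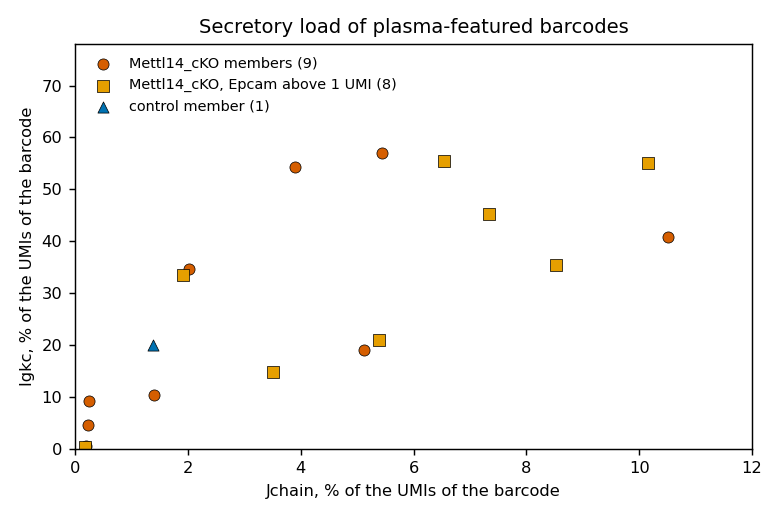
Jchain (x axis) against Igkc (y axis), each as a percentage of the UMIs of a barcode, for plasma-featured barcodes: 9 Mettl14_cKO members, 8 Mettl14_cKO barcodes above the Epcam limit and 1 control member. Members and barcodes above the limit overlap on both axes.

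Variable gene segments were named only where the counts allowed. A dominant Ighv gene was called in 12 of the 17 plasma-featured barcodes and a dominant Igkv gene in 12, with 9 and 11 different genes. Ighv4-1 led in 4 barcodes. The pair of Ighv4-1 and Igkv4-86 occurred in 2 barcodes, both above the Epcam limit, with 23 and 55 Ighv4-1 UMIs and 2 and 14 Igkv4-86 UMIs. The first was Igha-dominant and the second Ighg3-dominant. Among the 121 members, 5 had a dominant Ighv gene and 6 a dominant Igkv gene, all 6 different, and no pair was shared. Iglv1 was the called Iglv gene in 14 of the 17 barcodes, each of which had at least 955 Igkc UMIs. In 12 of them it stood beside a dominant Igkv gene, so Iglv1 is not read here as the light chain of the cell. The member of 10176 UMIs is 1 of these 14. It had 2079 UMIs of Iglc genes against 1936 of Igkc, and neither light chain was called in it. Variable genes have near-identical copies, and how the authors' counting split reads between them was not examined.

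Over all 121 members, Ighm or Ighd dominated the heavy chain counts in 32 cells, Igha in 14, Ighg2b in 10, and Ighg1, Ighg2c and Ighg3 in 1 each. The remaining 62 had no call. At least 2 UMIs and 60% of the heavy chain constant counts were needed. By the same rule 1 of 154 T or NK barcodes, 0 of 76 macrophage barcodes and 11 of 5485 epithelial barcodes had a heavy chain call. Kappa led in 82 members and lambda in 18, and 77 had at least 2 UMIs of both.

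Class moved with depth. Among members that were not plasma-featured, a switched class was called in 0 of 48 cells under 1500 UMIs, in 4 of 34 from 1500 to under 3000, and in 14 of 30 with 3000 or more. Ighm or Ighd led in 13, 15 and 4 of the same cells. No Ighm or Ighd UMI was found in 23 of the 30 deep cells, and none was found in 37 of 82 shallower ones.

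**Figure D4:**
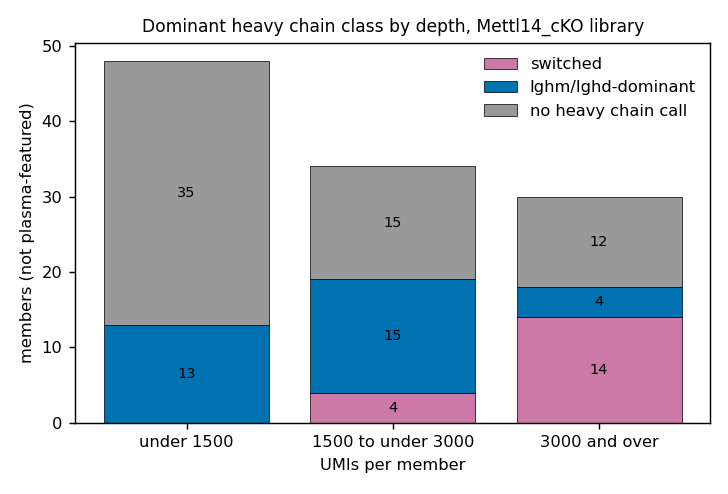
Number of members that are not plasma-featured (y axis) by UMIs per member (x axis) in the Mettl14_cKO library, stacked by dominant heavy chain class. Switched cells make up 14 of 30 members with 3000 or more UMIs and 0 of 48 under 1500.

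The 18 switched members outside the plasma class (8 Igha, 9 Ighg2b, 1 Ighg3) were compared with the 32 Ighm/Ighd-dominant ones. Median depth was 5089 UMIs in switched and 1718 in Ighm/Ighd-dominant members. Of 1830 tested genes, 9.62% were at least 2-fold higher and 12.1% at least 2-fold lower in switched members (median log2 ratio -0.02). Of 9 tested MHC class II genes, 8 were within 2-fold and H2-Ob was lower. Rgs1 had 62 UMIs in 12 of 18 switched cells against 2 UMIs in 2 of 32, a ratio of 22.5 (5.96 to 190). Ccr1, a chemokine receptor, had 12 UMIs in 9 switched cells and none in the others, with an exact lower limit of 2.01 on the ratio. Among cells of 2000 or more UMIs that limit was 1.02. Among cells of 3000 or more UMIs it was 0.609, so the interval included no change. Tnfrsf13b, the receptor TACI, had 15 UMIs against 4 (ratio 2.72, interval 0.866 to 11.3), and without the switched cell that held 6 of them the ratio was 1.73 (0.484 to 7.70).

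With cells of all depths summed, Cd22 and Fcmr were lower in switched members. Cd22, an inhibitory co-receptor, had 2 UMIs in 2 switched cells and 12 UMIs in 9 Ighm/Ighd-dominant cells, a ratio of 0.121 (0.0131 to 0.543). Fcmr, the receptor for IgM, had 1 UMI against 12 (ratio 0.0604, 0.00141 to 0.408). Among cells of 3000 or more UMIs, Cd22 had a ratio of 0.146 (0.0122 to 1.27) and Fcmr had 0 UMIs against 1, intervals that include no change. At 2000 or more UMIs, Cd22 had 2 UMIs against 5, a ratio of 0.147 (0.0140 to 0.897). At 3000 or more without the 2 members with neutrophil RNA, it had 1 UMI against 3 (ratio 0.0530, 0.00101 to 0.660). The intervals of Fcmr included no change in both settings. Of 6 tested naive follicular genes 3 were lower, namely Cd38, Klf2 and Gpr183, and none was with a pseudocount of 50 CPM. Klf2 was at 136 CPM in switched and 298 CPM in Ighm/Ighd-dominant members, and without the Ighm/Ighd-dominant cell that held 9 of its UMIs the ratio was 0.840 (0.333 to 2.17). Without the cell highest in Gpr183, that call was lost too (log2 ratio -0.79). Among cells of 3000 or more UMIs, where 14 switched cells met 4 others, Klf2 had 12 UMIs against 1, a ratio of 2.63 (0.389 to 112). Of 10 tested epithelial markers 5 were also lower in switched members (median log2 ratio -1.14), and their part in these values was not tested.

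Plac8, a small cysteine-rich protein of leukocytes and epithelium, was singled out after its values were seen. It had 428 UMIs in 17 of 18 switched cells (4861 CPM) against 78 UMIs in 20 of 32 Ighm/Ighd-dominant cells (1222 CPM), a ratio of 3.98 (3.12 to 5.13). Of the 78 UMIs, 42 lay in the naive-featured cell that carried neutrophil RNA, and without the 2 members with such RNA the ratio was 8.16 (5.80 to 11.8). Among cells of 3000 or more UMIs it was 1.90 (1.41 to 2.61) with those members and 9.25 (4.45 to 23.1) without them, where 3 Ighm/Ighd-dominant cells with 7 Plac8 UMIs remained. All 22 members with 10 or more Plac8 UMIs had at least 3470 UMIs in total. Of the 23 deep members with no Ighm or Ighd UMI, 19 had 10 or more. Plac8 stood at 217 CPM in T or NK and 578 CPM in epithelial barcodes of the same library, and the part of free RNA in the low counts was not tested.

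**Figure D5:**
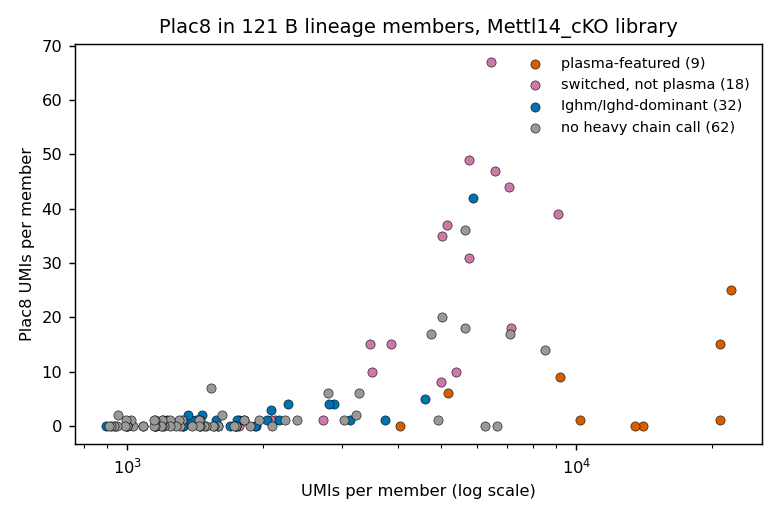
Plac8 UMIs (y axis) against total UMIs (x axis, log scale) for 121 members of the Mettl14_cKO library, coloured by class with cell numbers in the legend. The highest count, 67, is in a switched member, and plasma-featured members reach 25.

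RNA of other cell types was present at low levels in the members. T or NK markers stood at 39.5 CPM summed (2 of 13 genes detected, in 9 cells, against 13248 CPM in T or NK barcodes). Macrophage markers stood at 693 CPM (5 of 9 genes), mostly Apoe with 247 UMIs in 57 members, against 31699 CPM in macrophage barcodes. Neutrophil markers stood at 1068 CPM in 11 cells, and 1 switched Ighg2b member alone had 241 of those UMIs. Epithelial markers stood at 1685 CPM in 120 of 121 members (median 4 UMIs), against 2171 CPM in T or NK and 39730 CPM in epithelial barcodes. Dendritic cell markers stood at 210 CPM and erythroid markers at 34.5 CPM. Their part in the contrasts above was not tested beyond the values given.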

How the data were processed

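Single-cell UMI counts per gene and barcode were deposited by the authors as 1 matrix per library (31053 genes), and Cell Ranger made them. The submitters' processing notes name its release 3.0.0, whereas a file header names 3.1.0. No source used here gives the genome build. The notes also list Seurat 3, and no cell type annotation was used here. The members, lists and contrasts were chosen with earlier results of these data known, and the switched and plasma contrasts were added after the data were seen, with their named genes.

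UMIs of a group's cells were added up and scaled to a total of 1000000 (CPM). A gene was tested for size, with no p-value, if it had at least 10 UMIs over both groups and at least 50 CPM in 1 of them, and was called at 2-fold on log2 of (CPM + 10), a scale that understates the change of low genes. Any gene of the 25 lists could be named, together with the genes of highest and lowest ratio in each contrast (12 and 8 against T or NK barcodes, 12 and 12 elsewhere), leaving out mitochondrially encoded, ribosomal protein, immunoglobulin, T cell receptor, haemoglobin, sex-linked and gating genes. Plac8, Vpreb3 and the variable gene pairs were named after their values were seen. Shares have Clopper-Pearson and ratios exact conditional intervals at 95%. "At least" folds use a floor of 3 counts over the group. Doublets were scored with Scrublet in scanpy 1.11.5 and kept. Python 3.11.15, numpy 2.4.6, scipy 1.17.1 and pandas 2.3.3 were used, and the contrast script was tested on simulated data. Alternatives changed the gate, states, thinning to 1000 UMIs, pseudocount, filters and totals. Promoters came from RefSeq tables of GRCm38.p6, 250 bases before to 50 after each start. No cells were clustered. Some listed genes are not reported here.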

Additional observations from a re-analysis of the deposited data

How the results depend on the processing

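No paired analysis was possible because each genotype was 1 library, and no replicate could be left out. The Mettl14_cKO share of members was 0.768% with at least 1000 genes (42 members), 2.19% with mitochondrially encoded UMIs under 10%, 1.28% with a marker sum of at least 5, and 2.09% with no limit on Epcam, where the control had 5 members. Naive-featured members numbered 4 at 1000 genes, 15 at a marker sum of 5 and 16 when thinned to 1000 UMIs. Germinal-centre-featured members numbered 16 with 1 gene, 2 with 3 genes and 1 when thinned, and plasma-featured members 15 with no limit on Epcam. With at least 5 UMIs and 80% for a call, Ighm/Ighd led in 4 members, Igha in 9, Ighg genes in 6, kappa in 33, lambda in 6, and an Ighv gene in 2.

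Against T or NK barcodes, a pseudocount of 50 CPM gave 112 genes higher and 254 lower, and no minimum CPM gave 335 higher and 851 lower of 6221. Totals without immunoglobulin, ribosomal protein and mitochondrially encoded genes gave 439 higher of 4028. In switched over Ighm/Ighd-dominant members, a pseudocount of 50 CPM gave 95 higher and 117 lower. With cells of at least 2000 UMIs, 108 genes were lower in germinal-centre-featured, 132 in switched and 214 in plasma-featured members. Without the 2 members with neutrophil RNA, Cxcl2 turned to 1.79 in germinal-centre-featured over naive-featured members, and Cxcl2 and Il1b to 1.16 and 1.82 in switched over Ighm/Ighd-dominant members. Without the cell that met both rules, 179 genes were higher in germinal-centre-featured members. Shallow counts limit the rest: most members had too few UMIs to show a rare transcript, and the heavy chain was not called in 62 of 121.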
